A study of Mus musculus with 6 samples.

Results

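The proteasome subunit genes were followed through the cell types of the cerebellum of *Pcp2-ATXN1[82Q]* mice (SCA1) and wild-type mice (WT), in single nucleus RNA sequencing with 3 mice per genotype. Members were all genes whose symbol is Psma, Psmb, Psmc, Psmd, Psme, Psmf or Psmg followed by a digit, which gave 50 of the 32286 genes counted. The SCA1 line carries human *ATXN1*, made with 82 glutamines, under the *Pcp2* promoter, which is specific to Purkinje cells in the cerebellum, so glia and other neurons carry the transgene without driving it, and by the methods the repeat had become shorter on average in this colony. Their controls were sex-matched WT littermates, labelled C57Bl6, the SCA1 line had been backcrossed to that background, and all mice were 12 weeks old. Whole cerebella were used, with 1 library of nuclei per mouse, so the counts are of nuclear RNA.

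The proteasome is the protease that breaks down proteins marked with ubiquitin. Its 20S core is a barrel of alpha rings, which gate the entry, and beta rings, whose catalytic subunits cut the protein chain, and it is closed by a 19S particle, in which ATPases unfold the protein and non-ATPase subunits bind and remove ubiquitin. Interferon signalling replaces the constitutive catalytic subunits by immunoproteasome subunits, and in SCA1 the polyglutamine protein is a known proteasome substrate whose nuclear inclusions hold ubiquitin and proteasomes.

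By role, the members were 8 genes of the 20S alpha ring, 4 of the structural beta subunits, 3 of the constitutive catalytic subunits, 4 of the immunoproteasome and thymoproteasome catalytic subunits, 6 of the 19S ATPases, 11 of the 19S non-ATPase subunits, 3 of the 19S assembly chaperones, 5 of the activator caps, 1 of the inhibitor and 4 of the 20S assembly chaperones. *Psmc3ip* matches the symbol rule but encodes a protein of meiotic recombination, so sums over members leave it out and hold 49 genes. UMIs, the counted RNA molecules, were summed per mouse and per SingleR label, which the authors gave each nucleus from its expression. The authors' own cell types also required a shared Seurat cluster. The cell type names used here were read from the labels, and markers were checked only in the labels compared below. Of 24 labels, 11 had at least 20 nuclei in every mouse. They were granule neurons (GN, 37532 nuclei), oligodendrocytes (OL, 1384), Bergmann glia (BG, 1243), velate astrocytes (VA, 1014), Purkinje cells (PCs, 292, with 29 to 76 per mouse), 1 endothelial label and 5 neuron labels that are given here by their own names. Levels are CPM values, which give a gene's UMIs relative to all UMIs of its sum, corrected with TMM factors over the 66 sums of 11 labels and 6 mice.

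Libraries held 18916647 to 98366627 UMIs in 3354 to 10897 nuclei, and any pair of libraries shared 7 to 44 cell barcodes. WT mouse 2 had the fewest UMIs, with a median of 2246.5 per nucleus, against 4496 to 7253 in the other mice. Summed markers of each main cell type were highest in the label of that name, for example 20880 CPM of Purkinje markers in PCs. The endothelial label, Endothelial_Tip.Dcn.Nnat, reached only 307 CPM of endothelial and mural markers, so it is given by its label and not as a cell type. Microglial markers summed to 14 to 90 CPM in all 11 labels. Both mice numbered 3 had fewer UMIs of cytosolic ribosomal protein genes, at 5962 CPM in SCA1 mouse 3 and 5950 CPM in WT mouse 3 in GN, against 10687 to 18078 CPM in the other mice.

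Sequence upstream of 3 members is shown because these short beta ring genes had among the largest differences between GN and PCs below. It is RefSeq sequence of GRCm38.p6, the build that mm10 is, on the gene's own strand and outside annotated exons, and the 200 bases shown end 4, 28 and 1 bases before the RefSeq transcription start of Psmb4, Psmb5 and Psmb6. Capitals mark TGANNNNGC, a loose form of the core of the antioxidant response element, searched on both strands. That element is the motif of the Nfe2l1 and Nfe2l2 factors that drive proteasome genes. The regions are chr3:94886962-94887161 (minus strand) for *Psmb4*, chr14:54618023-54618222 (minus strand) for *Psmb5* and chr11:70525157-70525356 (plus strand) for *Psmb6*.
Psmb4: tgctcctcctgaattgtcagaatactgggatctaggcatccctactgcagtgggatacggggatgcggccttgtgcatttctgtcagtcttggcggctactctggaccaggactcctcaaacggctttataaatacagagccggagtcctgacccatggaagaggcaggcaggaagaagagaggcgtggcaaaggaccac
Psmb5: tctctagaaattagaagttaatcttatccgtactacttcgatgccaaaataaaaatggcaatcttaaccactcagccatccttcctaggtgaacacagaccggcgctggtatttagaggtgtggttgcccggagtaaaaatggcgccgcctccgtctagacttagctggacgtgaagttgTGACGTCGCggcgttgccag
Psmb6: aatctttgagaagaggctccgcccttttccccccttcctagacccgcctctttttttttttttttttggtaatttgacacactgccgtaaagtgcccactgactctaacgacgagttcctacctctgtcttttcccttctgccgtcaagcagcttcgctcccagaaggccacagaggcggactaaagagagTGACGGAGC
In *Psmb5* the motif began 47 bases before the start, and in *Psmb6* 9 bases before it. In *Psmb4* it was not in the bases shown. RefSeq windows of 300 bases, from 250 bases before to 50 after the start, were found for 42 of the 50 members. Of these, 24 members (57.1%) held the loose form, against 45.05% of 27025 genes. A match of these letters is a description and not a site.

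With TMM factors, proteasome RNA was present at similar summed levels in every label, and highest in GN. Summed over the 49 members, GN reached 2372 ± 300 CPM (SD, n = 6 mice), OL 2145 ± 317 CPM, BG 2048 ± 273 CPM, VA 1989 ± 314 CPM and PCs 1986 ± 127 CPM. The lowest sum with these factors was 1774 ± 193 CPM in Endothelial_Tip.Dcn.Nnat. Neighbours in this order, from GN down to PCs, lay within 1 SD of each other. That SD is a spread between mice, which all labels share. In every mouse the GN sum lay above the PC sum. The order of the labels rests on the TMM factors, which were 0.59 to 0.83 in PCs and 1.14 to 1.39 in Endothelial_Tip.Dcn.Nnat. Relative to library size only, they raise the PC sums and lower those of the endothelial label. Sums with library size only are not given. A lower sum cannot be told apart from a larger RNA content of other genes in those nuclei.

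**Figure D1:**
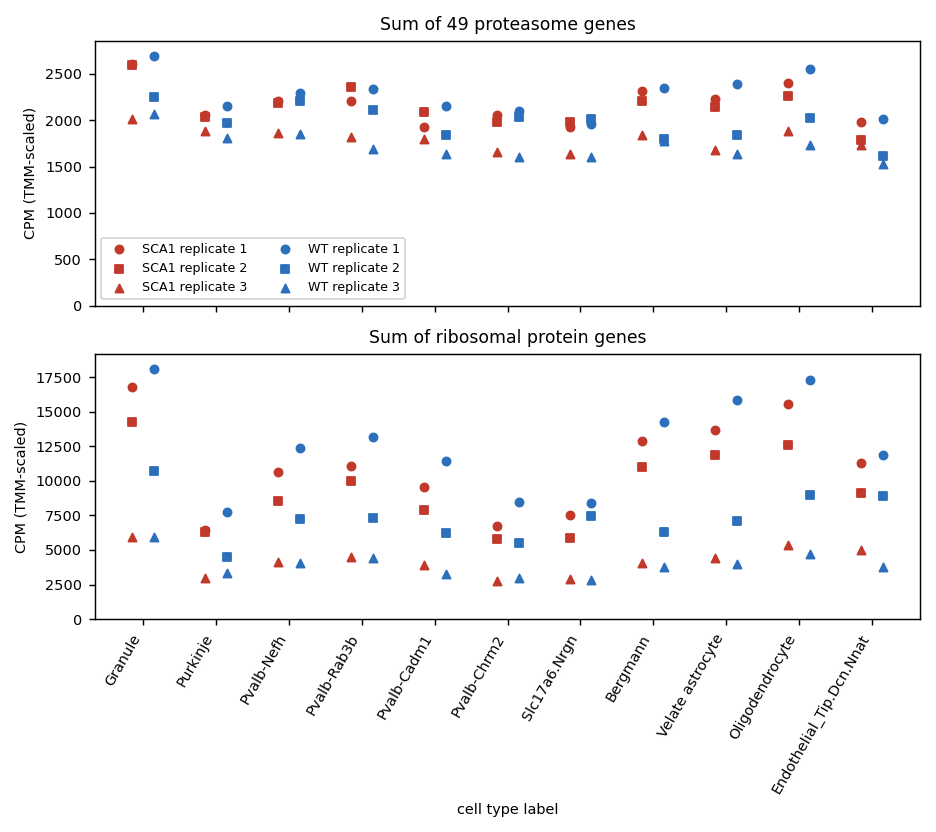
Summed level in CPM (vertical axis) of the 49 proteasome members (top) and of the cytosolic ribosomal protein genes (bottom) in each of the 11 labels (horizontal axis), with a point per mouse, coloured by genotype and shaped by replicate number. In GN the genotypes overlap, from 2012 to 2697 CPM, and the mice numbered 3 lie low in both panels.

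Among single members, *Psme4*, which encodes the nuclear activator cap PA200, was counted most often, from 166 ± 39.5 CPM in Neuron.Gad1Gad2.Pvalb-Cadm1 to 238 ± 57.1 CPM in GN. Introns were counted, and the part of gene length in a member's level was not tested. Per kilobase of gene, *Psme4* reached 2.19 CPM in GN and the 2.49 kb gene *Psmb6*, the caspase-like catalytic subunit, 18.97 CPM. In the alpha ring, *Psma3* had the highest CPM and ranged from 114 ± 22.6 CPM in OL to 173 ± 30.4 CPM in Neuron.Gad1Gad2.Pvalb-Nefh. Among the 19S ATPases, *Psmc6* ranged from 73.9 ± 20.3 CPM in VA to 97.8 ± 14.8 CPM in GN. The inhibitor *Psmf1* (PI31) ranged from 13.8 ± 7.1 CPM in Endothelial_Tip.Dcn.Nnat to 30.0 ± 14.5 CPM in Neuron.Gad1Gad2.Pvalb-Rab3b.

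Each label was then compared with the mean of the others, using edgeR's quasi-likelihood test with the mouse as a term, over 16522 genes that included 45 members. The 5 members that were too rare for this fit were *Psma8* of testis proteasomes, *Psmb8*, *Psmb9*, *Psmb11* of the thymus and *Psme2b*, with 54 to 280 UMIs in all nuclei. A member was called at an adjusted p (Benjamini-Hochberg) of at most 0.05. Because the labels were given from the same nuclei's expression, members included, these p-values describe the labels and do not allow for that choice.

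In GN, 27 of 45 members were called higher and 0 lower, where 38.1% of all genes were called higher and 21.4% lower. The 27 included 6 of 6 ATPases, 3 of 3 constitutive catalytic subunits, 6 of 7 alpha subunits, 3 of 4 structural beta subunits, 6 of 11 non-ATPase subunits, 2 of 4 caps, the inhibitor, and 0 of 7 assembly chaperones. The largest differences were 0.75 (SE 0.090, adjusted p = 7.53e-11) for *Psmb6*, 0.69 (SE 0.084, adjusted p = 1.35e-10) for *Psmc5*, a 19S ATPase, and 0.68 (SE 0.072, adjusted p = 1.18e-12) for *Psmb4*, a structural beta subunit, all log2 differences of GN from the mean of the other labels. *Psmb5*, the chymotrypsin-like catalytic subunit, was higher by 0.63. The median over members was 0.28, against 0.12 over all genes. With edgeR's RLE factors the all-gene median became -0.06 and 11 members were called higher and 4 lower. The number called thus rests on the scaling. The members lay 0.16 above the all-gene median with either. Other factors shift all genes of a sum nearly alike, so that distance is no check on the scaling.

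PCs showed the other pattern, with 6 members called higher and 17 lower, where 27.8% of all genes were called higher and 27.2% lower. Lower were 4 alpha, 2 structural beta and 2 constitutive catalytic subunits, 3 ATPases and 1 non-ATPase subunit, 3 assembly chaperones, *Psmb10* of the immunoproteasome and 1 cap. *Psme1*, the alpha subunit of the PA28 cap, differed most at -1.29 (SE 0.268, adjusted p = 3.47e-05), then the chaperone *Psmd10* (gankyrin) at -0.77 and *Psmb5* at -0.72, as log2 differences. Higher in PCs were the non-ATPase lid subunits *Psmd3* at 0.56, *Psmd11* at 0.52 (adjusted p = 1.14e-08) and *Psmd14*, the deubiquitinase of the lid, at 0.50, the chaperones *Psmg2* at 0.54 and *Psmd9* at 0.39, and *Psme4* at 0.26. With 1 mouse left out, 6 to 8 members were called higher and 10 to 17 lower in PCs. The median over members was -0.18, against -0.06 over all genes. PC nuclei held far more RNA, with a median of 16186 to 58288 UMIs per nucleus across mice against 2156 to 6948 in GN, and library size as the only scaling moved the all-gene median to -0.57. With that shift 0 members were called higher and 39 lower, and *Psmd11*, *Psmd14*, *Psmd9* and *Psme4* changed sign. The share of all genes called with that scaling is not given, so the 39 do not set members apart from other genes. Relative to the median of all genes the members were lower by 0.11 with each scaling, a distance that the scaling hardly moves for any set of genes.

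*Psmb4* and *Psmd11* were compared mouse by mouse. *Psmb4* in GN was at 73.2, 53.7 and 23.3 CPM in the SCA1 mice 1 to 3 and at 81.9, 43.6 and 22.7 CPM in the WT mice 1 to 3. In PCs the same gene was at 31.0, 25.2 and 10.2 CPM in SCA1 and at 36.6, 21.1 and 16.7 CPM in WT. Each mouse was thus higher in GN than in PCs, and mice numbered 3 were lowest of their genotype in both labels. *Psmd11*, a scaffold subunit of the 19S lid, ran the other way, with 105, 122 and 115 CPM in SCA1 and 94.6, 116 and 116 CPM in WT in GN. In PCs it was at 126, 161 and 144 CPM in SCA1 and at 126, 165 and 144 CPM in WT, higher than GN in every mouse with TMM factors. Levels are divided by these factors, which in every mouse were lower in PCs (0.59 to 0.83) than in GN (0.80 to 1.01). With library size only, *Psmd11* in PCs changed sign against the other labels, so its order in single mice rests on the scaling. The direct test that follows used TMM factors too. Tested directly, PCs against GN had 3 members higher and 22 lower of 45, where 26.1% of all genes were higher and 34.2% lower, with a median of -0.46 over members and -0.17 over all genes. The log2 difference of PCs from GN was -1.23 (SE 0.167) for *Psmb5*, -1.13 (SE 0.126) for *Psmb4*, -1.02 (SE 0.156) for *Psmb6*, 0.37 (SE 0.095) for *Psmd11* and 0.41 (SE 0.114) for *Psmd14*.

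**Figure D2:**
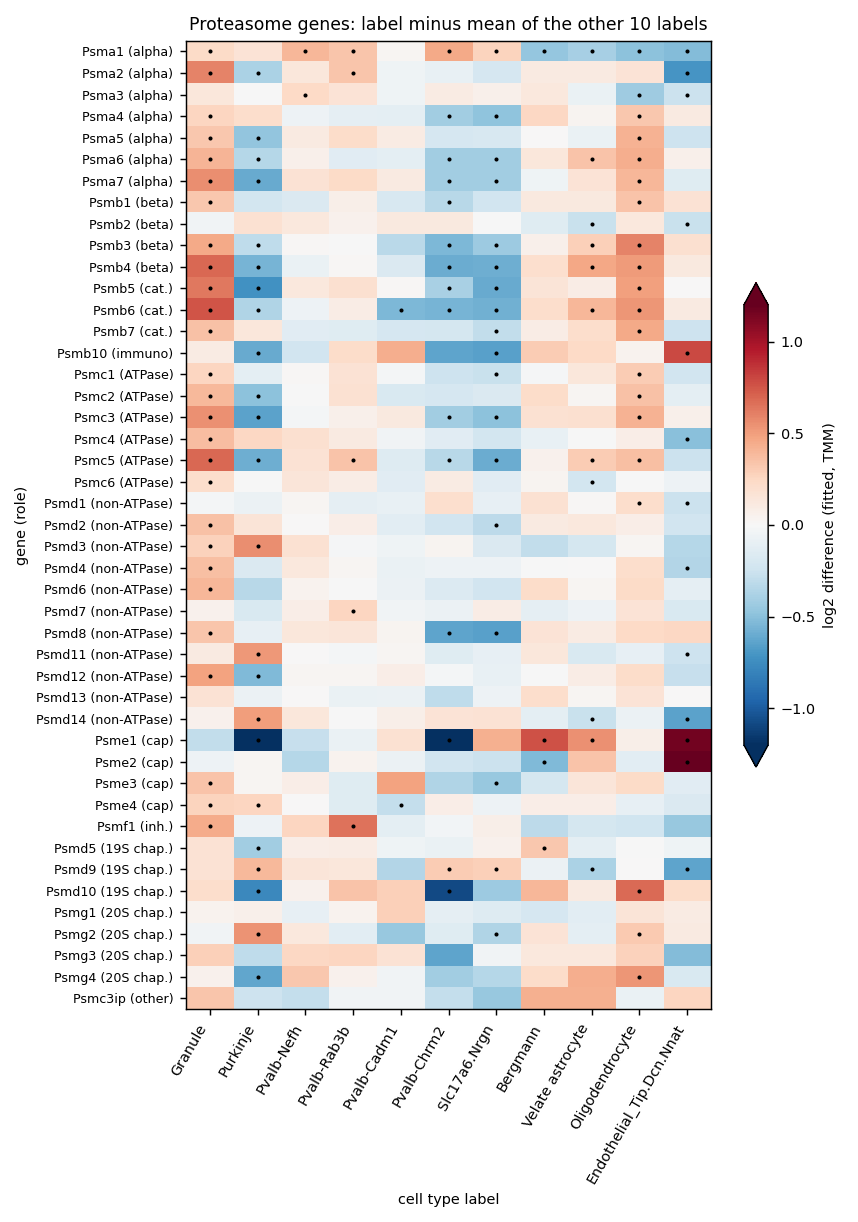
Log2 difference of each label from the mean of the other labels (colour, blue lower and red higher) for the 45 members tested (vertical axis, ordered by role) in 11 labels (horizontal axis), with a dot where the adjusted p was at most 0.05. GN has 27 red calls and no blue one, while PCs have 17 blue and 6 red.

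Among glia, OL had the most members called higher. OL had 18 members higher and 2 lower, where 26.6% of all genes were higher and 21.7% lower. The largest OL values were 0.68 (SE 0.205, adjusted p = 0.0041) for *Psmd10*, 0.60 for the structural subunit *Psmb3* and 0.53 for *Psmb6*, and the lower members were *Psma1* at -0.49 and *Psma3* at -0.42, both alpha ring subunits. Without SCA1 mouse 2, 10 members were higher and 3 lower in OL. Relative to the median of all genes, OL members lay 0.20 higher with each scaling, a distance that the scaling hardly moves. Tested directly, OL against GN had 1 member higher and 6 lower, where 21.4% of genes were higher and 27.6% lower, with a median of -0.11 over members and over all genes alike. BG had 2 members higher, *Psme1* at 0.76 and the chaperone *Psmd5* at 0.33, and 2 lower, *Psme2* at -0.53 and *Psma1* at -0.46, where 25.8% of all genes were higher and 19.9% lower. With library size only BG had 1 higher and 5 lower, and with RLE factors 4 higher and 2 lower. With 1 mouse left out, BG had 1 to 3 higher and 1 to 3 lower. *Psme1* and *Psme2* encode the alpha and beta subunits of one PA28 ring, so BG were called in opposite directions for its partners. *Psme2* had 73 UMIs in BG, with 0 to 26 per mouse. Both differences are from the mean of the other labels, so they also depend on the levels there. VA had 6 members higher and 5 lower, where 25% of all genes were higher and 19% lower, with *Psme1* at 0.55, *Psmb4* at 0.47 and *Psmb6* at 0.40 highest, and *Psma1* at -0.40, *Psmd9* at -0.38 and *Psmb2* at -0.27 lowest. With RLE factors VA had 8 higher and 2 lower, and with library size only 7 higher and 2 lower. The total of 11 in VA fell to 6, 7 and 6 without SCA1 mouse 1, SCA1 mouse 2 and WT mouse 1. With 1 mouse left out, the higher calls in VA ran from 1 to 7 and the lower ones from 3 to 5. BG against VA directly left 1 member higher and 1 lower, where 7.57% of genes were higher and 7.63% lower.

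The remaining neuron labels differed among themselves. Neuron.Gad1Gad2.Pvalb-Rab3b was in no mouse the majority label of a Seurat cluster. Neuron.Gad1Gad2.Pvalb-Chrm2 was so in SCA1 mouse 1 only, for 38 of its 81 nuclei there. The comparisons of these neuron labels were not repeated under other scalings or with mice left out. Neuron.Slc17a6.Nrgn had 2 members higher and 16 lower (27.3% and 22.3% of all genes), and Neuron.Gad1Gad2.Pvalb-Chrm2 had 2 higher and 13 lower (21.4% and 15.2%). In both the higher members were *Psma1* and *Psmd9*, while the lower ones in both included *Psmb4*, *Psmb5* and *Psmb6*. Neuron.Gad1Gad2.Pvalb-Rab3b had 5 members higher and 0 lower (13.3% and 10.7%), led by *Psmf1* at 0.66, Neuron.Gad1Gad2.Pvalb-Nefh had 2 higher and 0 lower (18.8% and 12.6%), and Neuron.Gad1Gad2.Pvalb-Cadm1 had 0 higher and 2 lower (13.6% and 14.4%). *Psma1* was called higher in 5 neuron labels, as at 0.45 in Neuron.Gad1Gad2.Pvalb-Chrm2, and lower in OL, BG, VA and Endothelial_Tip.Dcn.Nnat.

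*Psmb8* and *Psmb9*, the interferon-inducible catalytic subunits with the fewest UMIs, were rare outside endothelial stalk labels and microglia, while *Psmb10*, *Psme1* and *Psme2* were counted in every compared label. Endothelial_Tip.Dcn.Nnat had 3 members higher and 10 lower (21.3% and 27.1% of all genes), and the 3 were *Psme2* at 1.21, *Psme1* at 1.16 and *Psmb10* at 0.79. Pooled over mice, without TMM factors, *Psmb8* and *Psmb9* of the immunoproteasome were at 0.65 and 0.35 CPM in GN and at 0.19 and 0.19 CPM in PCs. In the Lrg1 endothelial stalk label, with 89 nuclei, *Psmb8* was at 29.5 CPM (exact Poisson 95% interval 19.4 to 42.9) and *Psmb9* at 28.4 CPM (18.5 to 41.6). In 125 microglial nuclei each was at 24.3 CPM (13.6 to 40.0). *Psme1* followed the same order, with 77.5 CPM (60.6 to 97.8) in Lrg1 stalk cells and 56.6 CPM (39.4 to 78.7) in microglia, against 24.6 CPM in Endothelial_Tip.Dcn.Nnat, 15.5 CPM in VA, 15.2 CPM in BG and 3.32 CPM (2.31 to 4.62) in PCs. These intervals cover counting error only. The stalk and microglial labels fell under the minimum of 20 nuclei per mouse set here, so they were not tested, and no markers were checked in them. On the opposite strand *Psmb9* overlaps *Tap1*, *Psmb8* overlaps *Gm20496* and *Psme1* overlaps *Emc9*.

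**Figure D3:**
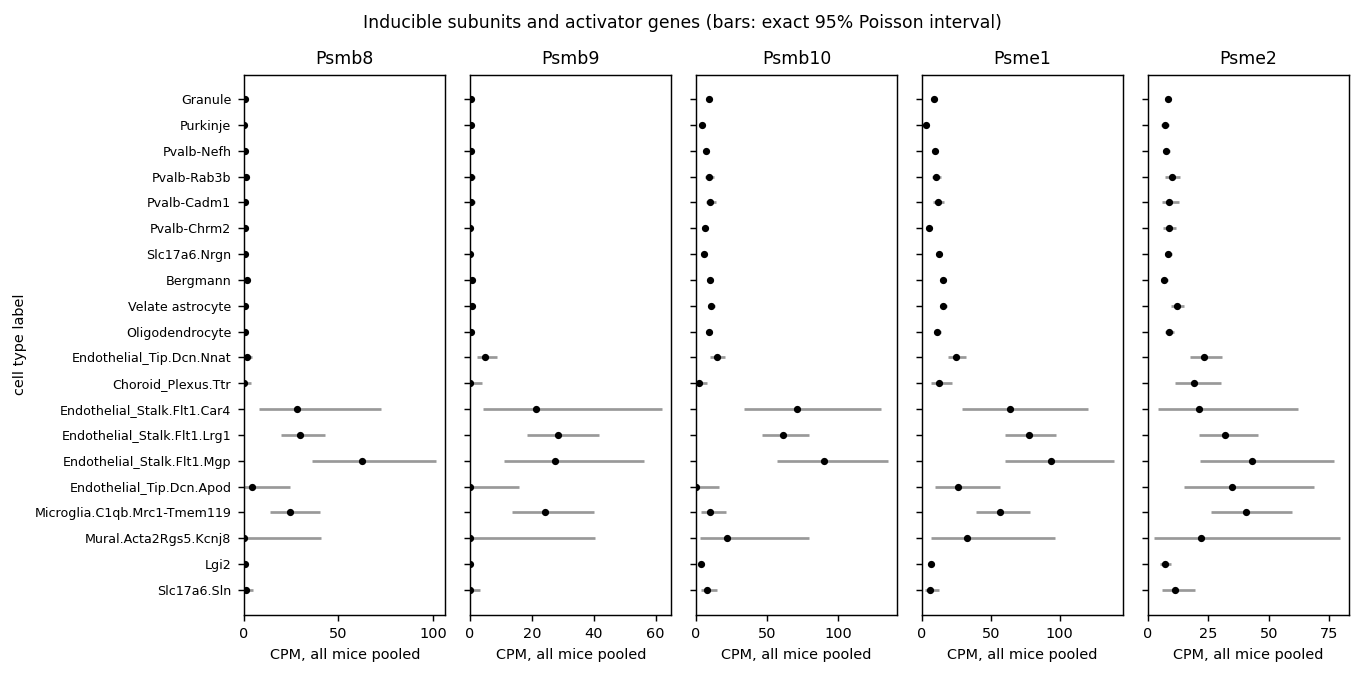
Level in CPM pooled over all mice (horizontal axes, a scale per gene) of *Psmb8*, *Psmb9*, *Psmb10*, *Psme1* and *Psme2* by label (vertical axis), with bars for exact Poisson 95% intervals. For *Psmb8* the Lrg1 stalk label and microglia, at 29.5 and 24.3 CPM, lie above the 11 compared labels, which were at 1.76 CPM or less.

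The length of the gene moved with these differences in some labels. For the 45 members, Spearman's rho between gene length and the log2 difference was 0.40 in PCs, 0.53 in Neuron.Slc17a6.Nrgn and 0.67 in Neuron.Gad1Gad2.Pvalb-Chrm2, against 0.08, 0.18 and 0.19 over 16291 genes. It was -0.52 in VA and in Endothelial_Tip.Dcn.Nnat, against -0.10 and -0.05 over all genes. In GN it was -0.20, against -0.16 over all genes, and in BG, OL, Neuron.Gad1Gad2.Pvalb-Rab3b, Neuron.Gad1Gad2.Pvalb-Cadm1 and Neuron.Gad1Gad2.Pvalb-Nefh it lay between -0.27 and 0.21. In PCs, the 18 members under 10 kb had 0 higher and 8 lower (18.9% and 28.6% of all genes of that length), and the 9 members over 30 kb had 4 higher and 2 lower (35.3% and 28.7%). These are descriptions across genes, which share the libraries. Its part in the differences between labels was not tested.

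**Figure D4:**
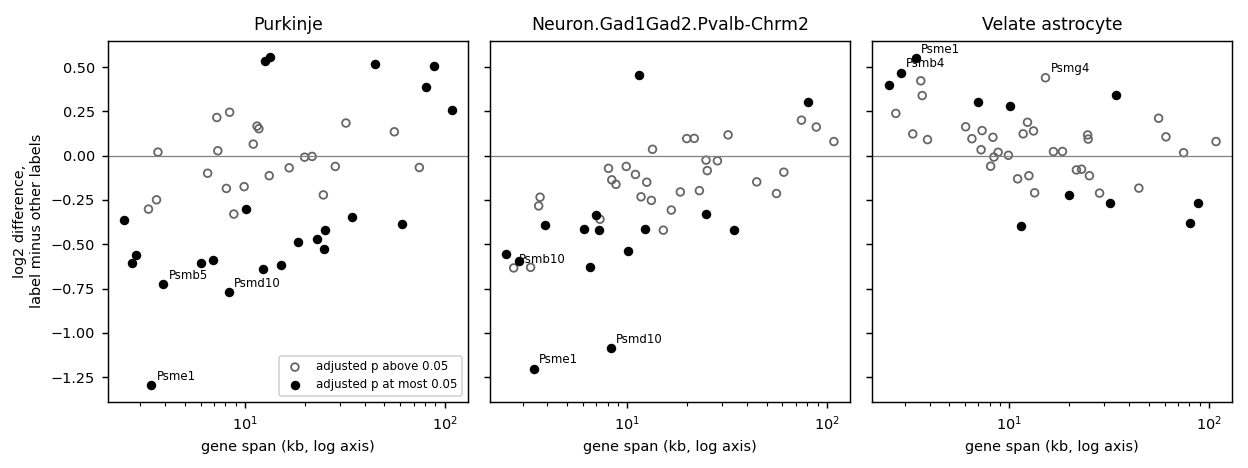
Log2 difference of a label from the other labels (vertical axis) against gene length in kilobases (horizontal axis, log scale) for the 45 members in PCs, Neuron.Gad1Gad2.Pvalb-Chrm2 and VA, filled where the adjusted p was at most 0.05. Short members lie low in PCs, where Spearman's rho was 0.40, and high in VA, where it was -0.52.

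Within each label, SCA1 mice were then compared with WT mice in edgeR (quasi-likelihood test), adjusting for batch, which here means the pair of library number ranges in the sample labels. No member was called in any of the 11 labels: of the members tested, 0 of 38 passed in PCs, 0 of 43 in Bergmann glia, 0 of 42 in velate astrocytes, 0 of 44 in oligodendrocytes and 0 of 47 in granule neurons. Of all genes, 0.00917% were called in OL, 0.00566% in GN and 0% in the other 9 labels. DESeq2 and limma-trend also called 0 members in these 5 labels. At an unadjusted p under 0.05 edgeR gave 0 members in each of the 5, where the share of genes that passed was 6.65% (PCs), 1.71% (BG), 1.01% (VA), 0.807% (OL) and 1.77% (GN), and limma-trend gave 1, *Psmg3* in OL. In the other 6 labels edgeR gave 1, *Psma2* in Endothelial_Tip.Dcn.Nnat, which was lower in SCA1, where 0.982% of genes were lower at that p.

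In PCs, the cells that express the transgene, the summed members were at 2061, 2040 and 1884 CPM in SCA1 and at 2156, 1970 and 1807 CPM in WT. The genotypes overlapped, and the spread within each was larger than the distance between them. Over the 38 members the median log2 fold change was 0.06, against 0.02 over all genes, and the median SE of a member was 0.30. *Psmd6*, a lid subunit of the 19S particle, was the lowest at -0.65 (SE 0.307, unadjusted p = 0.059, adjusted p = 0.782). It was at 20.5, 12.6 and 12.7 CPM in SCA1 and at 30.1, 22.8 and 21.3 CPM in WT. All SCA1 values lay below all WT values, which 1 member in this direction showed, where 5.68% of genes did. Within the library ranges its log2 fold change was -0.54 in mice 1 and -0.76 in mice 2 and 3.

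Other members with the largest values in PCs had overlapping mice. The chaperone *Psmg2* was at 30.0, 24.0 and 17.8 CPM in SCA1 and at 40.9, 49.2 and 15.2 CPM in WT (log2 fold change -0.51), and the alpha subunit *Psma4* had -0.38 (-0.57 to -0.19 with 1 mouse left out). *Psmd12*, a lid subunit, was at 29.5, 28.6 and 47.4 CPM in SCA1 and at 30.1, 24.6 and 18.2 CPM in WT (0.51), *Psme2* had 0.55 and *Psmd3* 0.41. *Psmg2* in PCs was -0.03 without WT mouse 2, *Psme2* 0.13 without SCA1 mouse 2, and *Psmd12* 0.25 without SCA1 mouse 3 and 0.28 without WT mouse 3. *Psmb5* was at 23.3, 29.7 and 11.0 CPM in SCA1 and at 27.1, 26.3 and 6.08 CPM in WT. In both genotypes mouse 3 was lowest for *Psmb5*, and the genotypes did not separate.

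BG, which surround PC bodies, and VA, which lie among the granule neurons, had median fold changes near 0 on the log2 scale, at 0.04 against 0.0046 over all genes in BG and at -0.01 against -0.01 in VA. In BG, *Psmd6* was highest at 0.51, with 36.8, 42.3 and 18.7 CPM in SCA1 and 31.7, 17.1 and 17.0 CPM in WT, followed by *Psma7* at 0.45 (-0.13 without SCA1 mouse 2) and *Psmd3* at 0.44 (0.26 to 0.70). The lowest in BG were the chaperone *Psmg3* at -0.47, the nuclear cap *Psme3* at -0.29 and *Psma5* at -0.24, which with 1 mouse left out ran from -0.79 to -0.21, from -0.62 to -0.06 and from -0.47 to -0.02. In VA the highest were *Psmd6* and *Psme2*, both at 0.46, and *Psmb10* at 0.40, and the lowest *Psme3* at -0.51, *Psmf1* at -0.40 and *Psmd14* at -0.39 (-0.57 to -0.19 with 1 mouse left out). No member separated the genotypes in BG or VA, where 4.75% and 4.79% of all genes did. *Psmd6* in BG was 0.13 without SCA1 mouse 2, and in VA it was 0.17 without that mouse and 0.07 without WT mouse 3. *Psme2* and *Psmb10* in VA were 0.06 and 0.11 without SCA1 mouse 2. Fold changes in PCs were not tested against those in these glia.

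OL and GN showed no called member either. In OL, *Psmb2* was at 84.3, 95.4 and 95.5 CPM in SCA1 and at 76.9, 73.2 and 61.7 CPM in WT, the 1 member whose lowest SCA1 mouse lay above the highest WT mouse, where 2.66% of genes did so. The OL extremes were *Psmg3* at 0.93, *Psme2* at 0.62 and *Psmb10* at 0.44, and *Psme1* at -0.60, *Psma6* at -0.34 and *Psme3* at -0.33. *Psmg3*, *Psme2* and *Psmb10* were each at 0 UMIs in WT mouse 2, which had the smallest OL sum. That sum held 385940 UMIs, against 854115 to 2936388 in the other mice, and the part of depth in these zeros was not tested. Leaving out 1 mouse moved *Psmg3* between 0.69 and 2.44, *Psme2* between 0.25 and 1.85 and *Psmb10* between 0.04 and 2.75, with the lowest values without SCA1 mouse 2. *Psme3* in OL became 0.05 without either mouse numbered 1, where the batch term leaves the fold change to mice 2 and 3. In GN, 39 of 47 members had a fold change above 0 (83.0%, against 49.5% of all genes), with a median of 0.06 against 0.00 over all genes (-0.003), while no member separated the genotypes, where 3.06% of genes did. The lowest in GN were *Psmc3ip* at -0.42, *Psmb7*, the trypsin-like catalytic subunit, at -0.14 and *Psmd5* at -0.12, and the highest were *Psmb9* at 0.68, *Psme1* at 0.58 and *Psmb8* at 0.48. With 1 mouse left out *Psmc3ip* ran from -0.65 to -0.14, *Psmd5* from -0.20 to -0.01 and *Psmb8* from 0.13 to 0.78. *Psme1* was at 11.6, 11.5 and 4.10 CPM in SCA1 and at 11.5, 4.98 and 3.27 CPM in WT, so SCA1 mouse 2 stood above WT mouse 2 and the other pairs were closer. Without SCA1 mouse 2, *Psme1* in GN became -0.02, *Psmb9* -0.16 and the median over members -0.17, and without WT mouse 3 that median was -0.06.

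**Figure D5:**
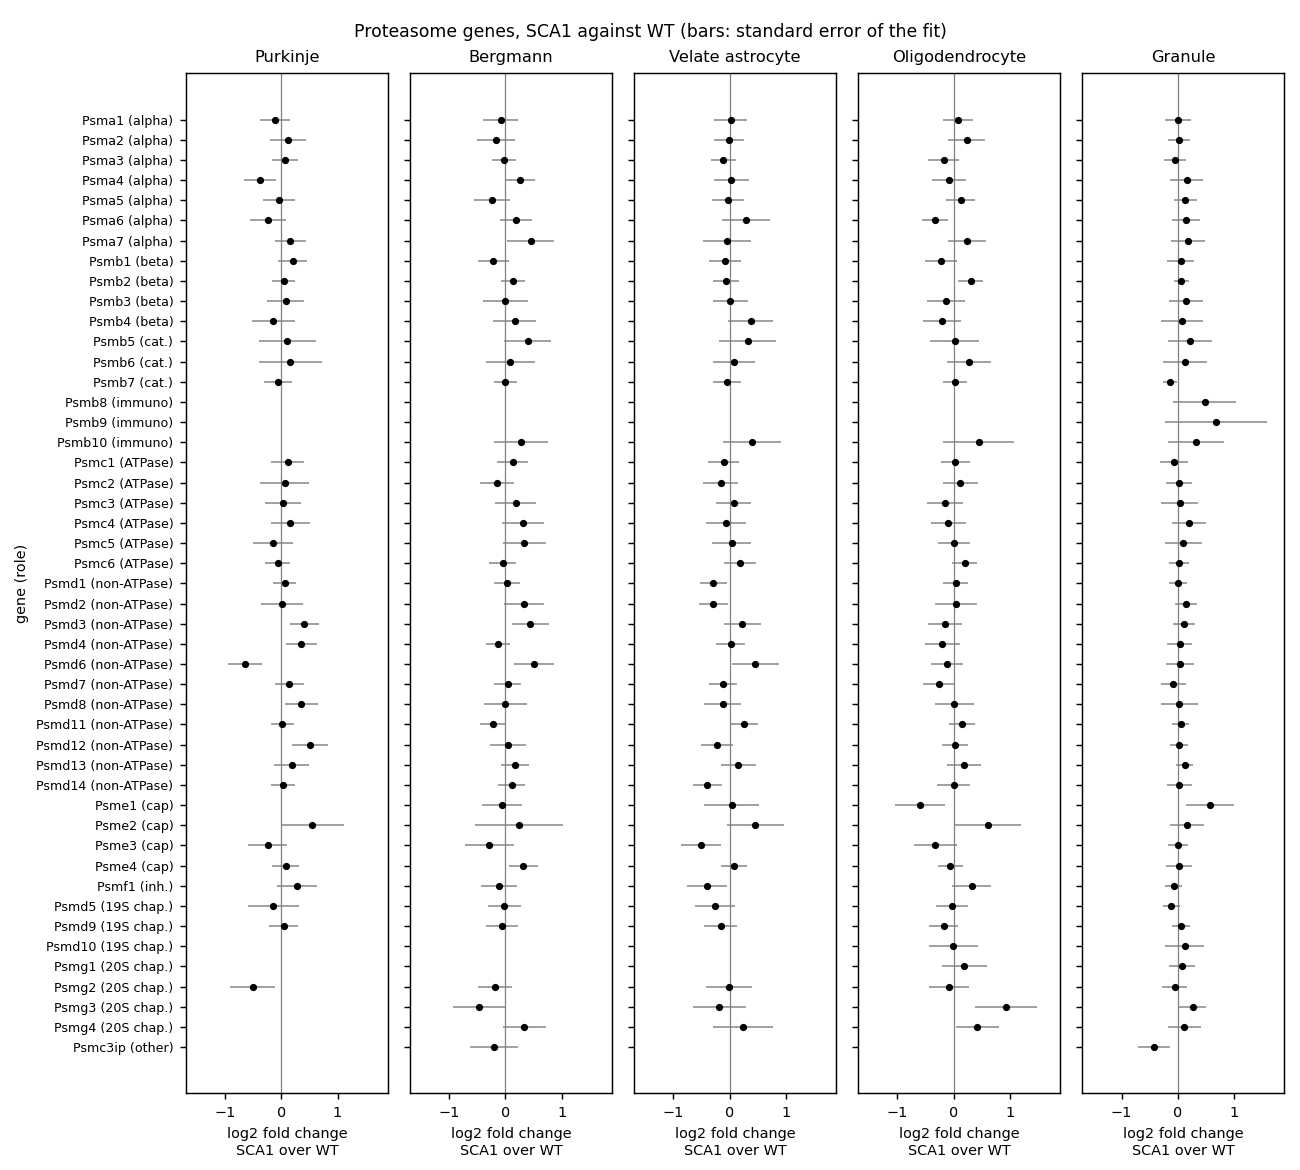
Fitted log2 fold change of SCA1 against WT (horizontal axes) of each tested member (vertical axis, by role) in the 5 main labels, with bars of 1 SE to each side and a line at 0. Values scatter around 0 in each label, *Psmd6* in PCs is the lowest there at -0.65, and none was called.

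Mice differed more than genotypes did. In GN the summed members were at 2610, 2594 and 2012 CPM in SCA1 and at 2697, 2253 and 2065 CPM in WT. WT mouse 1 was highest for 24 of 47 members, and the lowest was WT mouse 3 for 20 and SCA1 mouse 3 for 18. The ribosomal protein genes moved with this order, at 16775, 14245 and 5962 CPM in SCA1 and at 18078, 10687 and 5950 CPM in WT, and so did mitochondrial transcripts, at 37190, 19724 and 7247 CPM against 50281, 15481 and 9761 CPM. Their part in the members' spread was not tested. *Psmb6* followed the order, with 62.9, 58.8 and 24.0 CPM in SCA1 and 71.3, 43.6 and 23.0 CPM in WT, and *Psme4* ran against it, with 204, 217 and 301 CPM in SCA1 and 186, 202 and 320 CPM in WT. The ratio of the highest to the lowest mouse had a median of 2.41 over 19 members under 10 kb, of 1.65 over 18 members of 10 to 30 kb and of 1.52 over 9 members over 30 kb.

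Whether the genotype effect differed between cell types was tested as an interaction with GN. For the PCs and the 3 glial labels, 0 members were called, where 0% of all genes were, and at an unadjusted p under 0.05 the members were 0 in PCs, BG and VA and 1 in OL, where 4.64%, 1.18%, 1.47% and 1% of genes were. *Psmd6* gave -0.69 (SE 0.318, unadjusted p = 0.054, adjusted p = 1) in PCs, 0.47 in BG and 0.53 in VA, as log2 effects relative to GN. The 1 member at an unadjusted p under 0.05 was *Psme1* in OL at -1.03 (unadjusted p = 0.031, adjusted p = 1).

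Of 25 other genes of the pathway (regulators, ubiquitin genes and proteasome factors with other symbols), 24 were counted, and 0 of 23 tested in PCs and 0 of 24 in each of the other main labels were called between genotypes. Between labels, 15 were higher and 1 lower in GN, 10 and 3 in OL, 7 and 5 in BG, 8 and 3 in VA, and 5 and 10 in PCs, to be read against the shares of all genes given above for the same labels, to which the BG counts come close. *Pomp*, which matures the 20S core, was at 0.62 in GN and -0.52 in PCs, and *Sem1*, a small lid subunit, at 0.61 and -0.63. *Adrm1*, a ubiquitin receptor, was at 0.32 in GN. *Nfe2l1*, which raises proteasome genes when proteasomes are inhibited, was at 0.37 in PCs, and the stress factor *Nfe2l2* at 1.84 in BG, 1.96 in VA and -0.92 in PCs. All these differences use TMM factors, and pathway genes were not followed under other scalings. With library size only, the all-gene median in PCs went from -0.06 to -0.57 and several higher members changed sign. The sign of *Nfe2l1* in PCs is thus not settled. *Usp14*, a deubiquitinase of the 19S particle, was at -0.47 in BG.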

How the data were processed

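Whole cerebella of 6 mice, 3 per genotype, were analysed with 1 library of nuclei each. The authors aligned the reads with Cell Ranger (5.0.1 in the methods, with 4.0.0 and 6.0.1 also in the submitters' processing notes) to mm10 with human *ATXN1* added, counted introns as well as exons, removed debris with DIEM and labelled nuclei with Seurat 4.0.4 and SingleR. The deposited values are raw UMI counts per gene and nucleus, not normalized, and a label per nucleus. Counting introns can raise the counts of long genes, and 3′ priming in nuclei can read unspliced RNA. Neither was tested here. No doublet caller was run here.

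Counts were summed per mouse and label. The members and gene lists were chosen with earlier results of these data known. Genotypes were compared with edgeR 4.0.16 in R 4.3.3 (TMM factors, edgeR's low-count filter at its 10 and 15 count defaults, terms for genotype and batch, quasi-likelihood test, Benjamini-Hochberg adjustment). Labels were compared in 1 fit of 66 sums with label and mouse as terms, over genes with a mean of at least 1 CPM. DESeq2 1.42.0 and limma 3.58.1 were alternatives, as were other scalings and filters, no batch term, nuclei of at least 3000 UMIs and each mouse left out. Batch was inferred from the library numbers, with the mice numbered 1 in the lower range. p-values between genotypes measure the spread between mice. Those between labels measure the spread of the sums left after the mouse and label terms. The tests were also run on simulated counts with known changes, with an outcome that is not given here. Gene positions came from GENCODE's annotation of GRCm38, matched by symbol, and promoters from RefSeq (GRCm38.p6). Named by rule were the 3 highest and 3 lowest members of each comparison of the main labels (among those called, between labels), the catalytic subunits and their inducible counterparts, the caps, the inhibitor, and the member with the highest level in each role. Members named beside these, such as *Psma1*, *Psmb2* and *Psmd11* in single labels, were chosen after their values were seen.

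The same replicate number need not pair mice. Deviations from the genotype mean correlated between same-numbered mice at 0.90, 0.34 and 0.87 in GN and at 0.69, 0.13 and 0.59 in VA for numbers 1, 2 and 3. For number 2 the correlation was 0.05 to 0.09 in PCs, BG and OL. In BG and VA, SCA1 mouse 2 correlated more with WT mouse 1 than with WT mouse 2. The mice numbered 1 also share a batch, and no batch term entered these deviations, so pairing and batch cannot be told apart for them.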

Additional observations from a re-analysis of the deposited data

Results flagged for a closer look

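Interferon-inducible catalytic subunits stood out in labels that entered no comparison because a mouse held under 20 of their nuclei. Pooled over mice, *Psmb8* was at 28.3 CPM in 22 Car4 endothelial stalk nuclei (4 UMIs), 29.5 CPM in 89 Lrg1 stalk nuclei, 62.5 CPM in 25 Mgp stalk nuclei and 24.3 CPM in 125 microglial nuclei, where the highest upper bound in the 11 compared labels was 4.51 CPM. *Psmb9* was at 28.4 CPM in the Lrg1 label, 27.4 CPM in the Mgp label (7 UMIs) and 24.3 CPM in microglia, against a highest upper bound of 8.66 CPM. *Psmb10* was at 70.8 CPM in the Car4 label (10 UMIs), 61.2 CPM in the Lrg1 label and 89.9 CPM in the Mgp label, against 20.4 CPM. Nuclei of the Mgp label came from 4 of the 6 mice, and WT mouse 1 gave 198996 of its 255846 UMIs. The bounds are of exact Poisson 95% intervals and cover counting error only. In these labels no test between mice was made and no markers were checked.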

How the results depend on the processing

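The count of members called between genotypes was 0 in PCs, the 3 glial labels and GN with every alternative run, the fit with the replicate number as a block included, where the median log2 fold change in PCs was 0.06 and *Psmd6* in PCs had -0.64 (adjusted p = 0.424). The block changed no call. Counts of members called between labels moved more, from 23 in PCs to 39 with library size only and 9 with WT mice only, from 27 in GN to 15 with RLE factors and 8 with WT mice only, and from 11 in VA to 5 with limma-trend. With WT mice only, BG had 1, VA 0 and OL 5. Fewer mice enter those fits, and for the other changes the cause was not tested. No share of all genes stands beside the counts under alternatives or with 1 mouse left out, here and above. Such counts show how the calls moved, not how members compare with other genes. Leaving out each mouse in turn, these counts were 16 to 23 (PCs), 3 to 5 (BG), 6 to 12 (VA), 13 to 20 (OL) and 20 to 28 (GN). Medians between genotypes then ran from -0.07 to 0.13 (PCs), -0.12 to 0.14 (BG), -0.19 to 0.14 (VA), -0.15 to 0.13 (OL) and -0.17 to 0.20 (GN). Signs turned without SCA1 mouse 2 for *Psma7* in BG (-0.13, range to 0.88), *Psme1* in GN (-0.017, to 0.90) and *Psmb9* in GN (-0.16, to 3.10), and without either mouse numbered 1 for *Psme3* in OL (0.051, range from -0.61). Without 1 of the mice numbered 1, the other stands alone in its batch, and the batch term takes it up. Such fits between genotypes rest on mice 2 and 3 and are not separate checks of each other. Genotype fold changes under the alternatives were followed for the 3 highest and 3 lowest members of each main label only. Of these values, 443 kept direction and side of the threshold and 5 turned sign. None was called in any fit, and as extremes they do not speak for the other members. Differences of single members between labels are not in that count. PCs had 292 nuclei, which limits what their sums can show.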

Other observations

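Among pathway genes that are no members, *Ube3a*, a ubiquitin ligase, was higher in PCs than in the other labels by 1.11 on the log2 scale. In the RefSeq windows, the CCAAT box was in 15 of 42 members (35.7%, against 41.1% of genes).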
